A study of Mus musculus with 27 samples.

Results

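The comparison set RNA from NIH/3T3 fibroblasts harvested 12 h after a forskolin pulse against RNA harvested at 6 h, on 6 of the 27 arrays of the series. The arrays were chosen by their labelled times alone, 3 at 12 h and 3 at 6 h, and each 12 h array was paired with the 6 h array of the same experiment. NIH/3T3 is an established mouse fibroblast line. All cultures in both groups had been stepped down in serum and then exposed for 2 h to 15 µM forskolin without serum, after which the drug was washed off and serum stayed absent. They carried no other treatment, so both groups had serum withdrawn and received the pulse. The 12 h cultures had been without serum for longer, which cannot be told apart from the time since the pulse. Unpulsed cultures were not analysed here. The labels call the 3 experiments biological replicates, and every value comes from 1 cell line.

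Forskolin activates adenylyl cyclase, the enzyme that makes cyclic AMP, and a brief pulse of it sets the circadian clocks of cultured fibroblasts to a common phase. The clock is a loop in which CLOCK and BMAL1 (Arntl) activate the Per, Cry and Nr1d genes, whose products repress them in turn, while Rora activates Arntl. Fibroblasts without serum leave the cell cycle, and transcripts for DNA replication and mitosis are characteristic of cycling cells. Fibroblasts also make their own fatty acids and sterols, under the SREBP transcription factors, and secrete the collagens and glycoproteins of the matrix around them.

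Values are log2 intensities after quantile normalization, and a change is the 12 h level minus the 6 h level, so that 1 unit is a doubling of intensity plus a pseudocount of 12.1. Changes are given ± SE from 1 limma fit of all 27 arrays with the experiment as a block (n = 3 arrays per time), and p-values were adjusted by the Benjamini-Hochberg method over 7453 probe sets. Each gene was read from its brightest probe set. The array is a bulk measurement, in which fewer cells of a type and less RNA per cell cannot be told apart.

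All 18 fibroblast markers passed the filter on low values, led by the collagen Col1a2 at 14.49 to 14.60. Cd44, at means of 6.73 at 12 h and 6.62 at 6 h, and Vim, at 7.46 at 12 h and 6.88 at 6 h, were dim. Summed deposited intensity of those markers was 155166 to 172364 at 12 h and 139122 to 144113 at 6 h, and the ranges did not overlap. Markers of other cell types were mixed. The filter passed 7 of 19 leukocyte markers on the array, 4 of 10 adipocyte, 9 of 17 muscle, 3 of 15 epithelial, 2 of 11 endothelial and 6 of 15 neuron and glia markers. The brightest were Cd14 at 9.61 at 12 h and 9.82 at 6 h, Lep at 9.77 at 12 h and 9.24 at 6 h, Cdh1 at 9.22 at 12 h and 8.88 at 6 h, and Eng at 9.88 at 12 h and 9.61 at 6 h. Tubb3, on the neuron list, stood at 10.65 at 12 h and 10.63 at 6 h. The brightest muscle marker, Myod1, averaged 8.14 at 12 h and 7.81 at 6 h, and the leukocyte markers Cd68 and Csf1r also passed. Some defining markers, but not all, were near the bottom of the scale. Ptprc, which defines leukocytes, had a mean of 4.45 at 12 h and 4.29 at 6 h. The epithelial marker Epcam averaged 4.28 at 12 h and 4.53 at 6 h, and the endothelial marker Cdh5 averaged 4.72 at 12 h and 4.62 at 6 h. All 3 lay under the lowest mean that passed the filter, 6.77. Summed epithelial markers ran from 1275 to 1538 at 12 h and from 951 to 1134 at 6 h, and muscle markers from 1520 to 2083 at 12 h and from 1300.2 to 1594 at 6 h. The actin 3′ to 5′ ratio, a sign of RNA integrity, was 1.61, 1.15 and 1.32 at 12 h in experiments 1 to 3, against 1.73, 1.30 and 1.49 at 6 h, lower at 12 h in each experiment. The same ratio for Gapdh was 0.796, 0.703 and 0.758 at 12 h, against 0.826, 0.798 and 0.757 at 6 h, not lower in experiment 3. The labels give the 12 h arrays of experiments 1 and 3 another source name than the other arrays. In those experiments the source name differs between the 2 times and cannot be told apart from time, while in experiment 2 it does not differ. The mean correlations of those 12 h arrays with the other arrays, 0.935 and 0.944, lay inside the range of all 27, 0.917 to 0.953. Over the genes called below, the median size of the paired change was 0.80 in experiment 1, 0.76 in experiment 2 and 0.80 in experiment 3. Of those 34 genes, experiment 2 had the smallest paired change in size in 11, Pea15a and Rpa1 among them, and the largest in 10. The genes were called on these same arrays, so these values cannot show whether the source had an effect. The part of the RNA ratios, of the source and of the marker sums in the results was not tested.

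Between 6 h and 12 h the falls included the centriole kinase Plk4, the replication genes Rpa1, Pclaf and Chek1, the fatty acid desaturases Scd1 and Fads1, and the matrix protein gene Tnc. The rises included the lysosomal protease gene Ctsd, the surface protein genes Egfr, Vcam1 and Cx3cl1, and the clock receptor gene Rora. In limma, 40 of 7453 probe sets passed, 17 higher and 23 lower at 12 h. At an unadjusted p below 0.05 there were 994, or 13.3%. These probe sets included the brightest one of 34 genes, of which 21 were lower at 12 h (0.372% of 5643 genes) and 13 higher (0.23%). All 34 had the same direction in every experiment. The background for that was 19.3% of all genes lower in all 3 experiments and 18.8% higher in all 3. For 30 of the 34 the 12 h and 6 h arrays did not overlap, a separation seen in 11.9% of all genes. The calls depended on pairing by experiment. Without the experiment as a block 1 probe set passed, for Gas2, with 386 at an unadjusted p below 0.05.

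**Figure D1:**
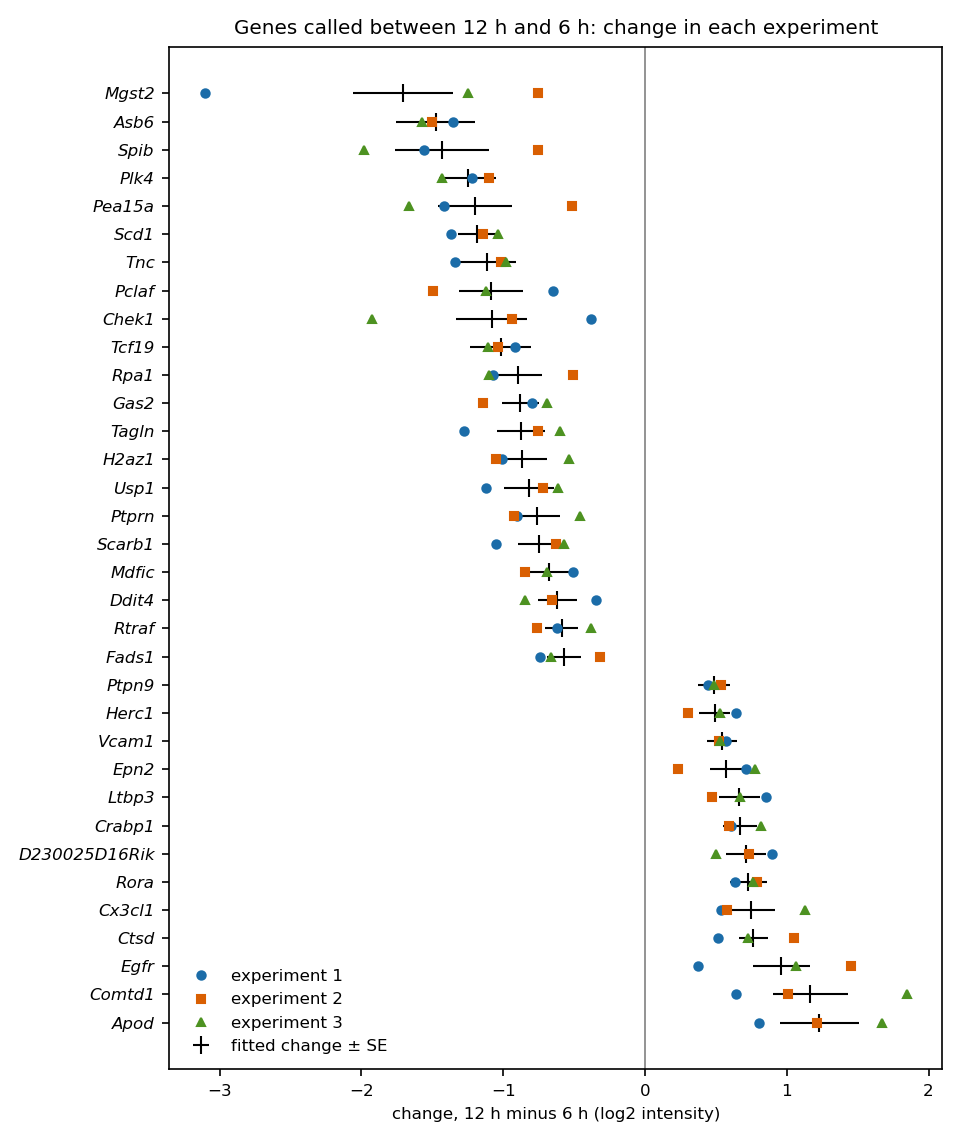
Change of each of the 34 called genes from 6 h to 12 h, as 12 h minus 6 h in log2 intensity, in experiments 1 to 3 (symbols), with the fitted change and its SE (black). All symbols of a gene lie on 1 side of 0, and Mgst2 has the widest spread, with -3.11 in experiment 1 and -0.76 in experiment 2.

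Several of the falls were in genes with known roles in DNA replication or cell division. Plk4, the kinase that starts centriole duplication, stood at 7.37, 8.42 and 8.48 on the 12 h arrays of experiments 1 to 3, against 8.59, 9.52 and 9.91 on the 6 h arrays. Each 12 h array was below every 6 h array, and the paired changes were close to each other. The fitted change was -1.25 ± 0.20 (limma adjusted p = 0.00417). Rpa1, the large subunit of the protein that coats single-stranded DNA, was 8.92, 9.33 and 8.996 at 12 h, against 9.99, 9.84 and 10.10 at 6 h. Its arrays did not overlap, and experiment 2 had the smallest change, -0.51 beside -1.07 and -1.10 (fitted change -0.89 ± 0.17, limma adjusted p = 0.0184).

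Pclaf, a protein that binds the replication clamp PCNA, was 7.90, 8.11 and 8.07 at 12 h, against 8.55, 9.60 and 9.19 at 6 h. The 12 h arrays were close together and all lay below the 6 h arrays, with a fitted change of -1.09 ± 0.22 (limma adjusted p = 0.0247). Tcf19, a nuclear protein first described as a growth-regulated transcript, was 7.38, 8.11 and 7.50 at 12 h, against 8.30, 9.15 and 8.60 at 6 h. These ranges too were separate, and the fitted change was -1.02 ± 0.22. H2az1, which encodes the histone variant H2A.Z, was 9.94, 10.26 and 10.53 at 12 h, against 10.95, 11.31 and 11.07 at 6 h (change -0.86 ± 0.18). Usp1, the enzyme that removes ubiquitin from PCNA and FANCD2, was 8.70, 8.52 and 8.68 at 12 h, against 9.81, 9.23 and 9.29 at 6 h (change -0.82 ± 0.18, limma adjusted p = 0.0289). Chek1, the checkpoint kinase of stalled replication forks, was 6.56, 7.20 and 5.85 at 12 h, against 6.94, 8.13 and 7.78 at 6 h. It was dim, its 12 h mean of 6.54 lay under the lowest mean kept, and the arrays of the 2 times overlapped. Its change was -1.08 ± 0.25 (limma adjusted p = 0.0496) and -0.66 without experiment 3.

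The wider list of S phase and DNA replication genes had mostly small negative changes. Of 40 measured members Rpa1 alone passed, 35 were negative, and 28 were lower in all 3 experiments, or 70.0% beside 19.3% of all genes. At an unadjusted p below 0.05, 14 were lower, or 35% beside 6.93% of all genes. There 2 were higher, Cdc25a and Ung, or 5% beside 6.5% of all genes. The median change was -0.36, beside -0.01 over all genes, with -0.35, -0.35 and -0.38 in experiments 1 to 3. Members that did not pass, named after their values were seen, included the chromatin assembly subunit Chaf1a at -1.53 ± 0.40, the ribonucleotide reductase subunits Rrm2 at -0.80 ± 0.22 and Rrm1 at -0.70 ± 0.17, and the DNA polymerase alpha subunits Pola1 at -0.76 ± 0.20 and Pola2 at -0.65 ± 0.16. Their adjusted p-values in limma ran from 0.0681 to 0.0887. The helicase subunits Mcm5, Mcm4 and Mcm3 had changes of -0.92 ± 0.29, -0.57 ± 0.19 and -0.57 ± 0.23.

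Among 35 measured genes of G2 and mitosis 0 passed in limma. At an unadjusted p below 0.05, 6 were lower, or 17.1% beside 6.93% of all genes, and 0 were higher. Of the 35, 32 were negative and 23, or 65.7% beside 19.3% of all genes, were lower in all 3 experiments. The median was -0.31, with experiment medians of -0.29, -0.34 and -0.52. The spindle checkpoint gene Mad2l1 had the smallest p, with a change of -0.99 ± 0.26 (limma adjusted p = 0.0764). It was 8.20, 8.91 and 8.14 at 12 h, against 8.83, 9.77 and 9.62 at 6 h, and the highest 12 h array overlapped the lowest 6 h array. The neighbouring intervals were as follows. Between 12 h and 18 h, a comparison that shares the 12 h arrays, the mitosis median was -0.96 and the replication median -0.11. From 0 h to 6 h, which shares the 6 h arrays, the mitosis median was -0.01 and the replication median -0.24. These differences between the lists were not tested.

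**Figure D2:**
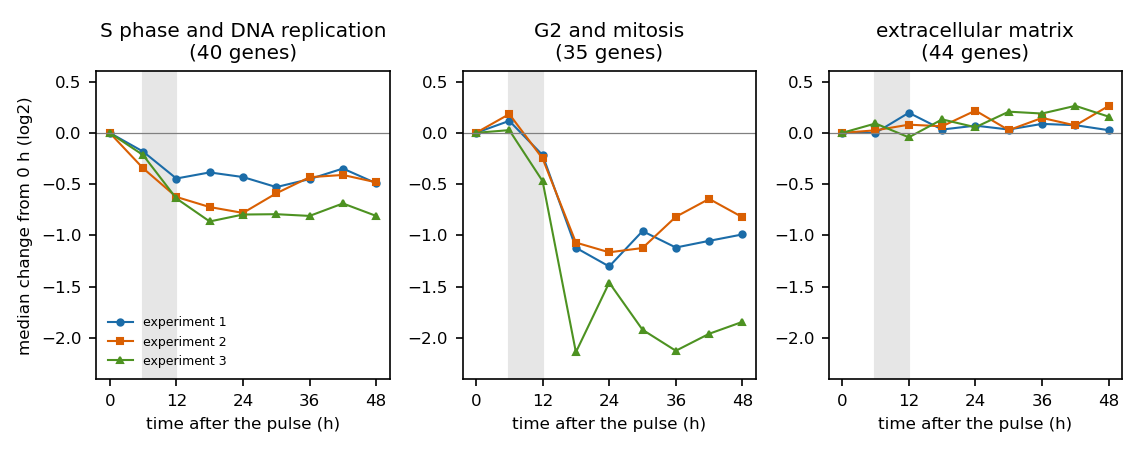
Median change from 0 h of 3 gene lists at each time after the pulse, in log2 intensity, 1 line per experiment, with the 6 h to 12 h interval shaded. The replication list is lower at 12 h than at 6 h in each experiment, the mitosis list passes below 0 at 12 h and lies between -1.07 and -2.14 at 18 h, and the matrix list stays near 0.

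The promoters of 4 of these falling genes are shown because each holds a CCAAT box, the site bound by NF-Y. They are 300 bases each, 250 before to 50 after the transcription start, from RefSeq on GRCm38.p6, written 5′ to 3′ on the gene's strand. Capitals mark the CCAAT box (CCAAT or its reverse complement ATTGG) and, in Pclaf only, an E2F motif (GCGGGAAA, the reverse complement of TTTCCCGC). Pclaf lies at chr9:65890073-65890372 (+), Rpa1 at chr11:75348334-75348633 (-), Tcf19 at chr17:35516775-35517074 (-) and H2az1 at chr3:137864237-137864536 (+).
Pclaf: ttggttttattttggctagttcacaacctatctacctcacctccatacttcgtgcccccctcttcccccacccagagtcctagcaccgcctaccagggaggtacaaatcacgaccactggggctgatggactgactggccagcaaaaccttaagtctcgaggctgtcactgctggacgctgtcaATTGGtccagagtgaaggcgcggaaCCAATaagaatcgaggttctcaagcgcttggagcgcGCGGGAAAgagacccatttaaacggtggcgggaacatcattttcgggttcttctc
Rpa1: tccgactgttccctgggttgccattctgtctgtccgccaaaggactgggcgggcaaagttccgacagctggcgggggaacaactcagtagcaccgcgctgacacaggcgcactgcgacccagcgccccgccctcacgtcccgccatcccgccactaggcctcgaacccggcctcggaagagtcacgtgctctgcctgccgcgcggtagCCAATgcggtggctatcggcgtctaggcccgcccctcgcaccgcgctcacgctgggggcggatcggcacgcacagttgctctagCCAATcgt
Tcf19: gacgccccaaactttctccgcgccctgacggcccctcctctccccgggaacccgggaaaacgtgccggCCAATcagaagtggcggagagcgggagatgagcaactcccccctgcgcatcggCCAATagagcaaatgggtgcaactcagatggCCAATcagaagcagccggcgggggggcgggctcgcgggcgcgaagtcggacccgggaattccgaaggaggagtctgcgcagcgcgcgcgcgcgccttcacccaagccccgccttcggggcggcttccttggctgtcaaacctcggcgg
H2az1: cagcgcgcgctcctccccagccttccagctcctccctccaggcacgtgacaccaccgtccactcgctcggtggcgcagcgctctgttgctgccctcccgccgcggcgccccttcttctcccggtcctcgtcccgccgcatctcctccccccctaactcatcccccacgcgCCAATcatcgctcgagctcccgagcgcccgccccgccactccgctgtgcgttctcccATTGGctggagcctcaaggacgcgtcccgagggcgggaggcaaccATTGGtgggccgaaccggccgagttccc

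RefSeq windows were matched for 16 of the 21 lower genes, 12 of the 13 higher genes and 4571 of the 5643 measured genes. The CCAAT box, searched on both strands, occurred in 12 of 19 windows of the lower genes, or 63.2%, in 1 of 12 windows of the higher genes, or 8.33%, that of Rora, and in 37.4% of 5921 windows of all measured genes. The E2F motif (TTTCCCGC or TTTGGCGC, both strands) occurred in 5.26% of the windows of lower genes, 8.33% of those of higher genes and 3.07% of all. The CHR motif of mitotic genes (TTTGAA or TTCAAA) occurred in 10.5% of the windows of lower genes, 8.33% of those of higher genes and 11.8% of all. The E-box bound by CLOCK and BMAL1 (CACGTG) occurred in 10.5% of the windows of lower genes, 16.7% of those of higher genes and 10.3% of all. The cyclic AMP response element (TGACGTCA) occurred in 0% of the windows of both sets and 2.77% of all, and its core (TGACG), which the full element contains, in 21.1% of the windows of lower genes, 8.33% of those of higher genes and 31.5% of all. The GC box (GGGCGG) occurred in 68.4% of the windows of lower genes, 58.3% of those of higher genes and 62.8% of all, and the D-box (TTATGTAA) in 0% of the windows of both sets and 0.456% of all. A match describes the letters of the window and is not a binding site, and the windows of Plk4 and Chek1 held neither a CCAAT box nor the E2F motif.

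The lipid genes Scd1, Fads1 and Scarb1 also fell. Scd1, the desaturase that makes oleate from stearate, had the smallest adjusted p of the comparison. It was 10.76, 11.64 and 11.30 at 12 h, against 12.12, 12.78 and 12.34 at 6 h. These ranges did not overlap, and the change was -1.18 ± 0.14 (limma adjusted p = 0.00016). A second Scd1 probe set gave -1.15 ± 0.29 and did not pass (limma adjusted p = 0.0726). Scd1 was also the only gene that passed in limma whichever of the experiments was left out, with changes of -1.09 to -1.25. Fads1, a desaturase of polyunsaturated fatty acids, was 9.91, 10.61 and 10.25 at 12 h, against 10.65, 10.92 and 10.91 at 6 h (change -0.57 ± 0.12, limma adjusted p = 0.0258). Both belong to a list of fatty acid synthesis and storage, in which only these 2 of 20 measured genes passed. Of the 20, 10 were lower in all 3 experiments, or 50% beside 19.3% of all genes. The list median was -0.11. Its elongase Elovl6 had -0.84 ± 0.27 and its synthase Fasn -0.37 ± 0.19, without passing, and both were named after their values were seen.

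Scarb1, the receptor through which cells take up cholesterol esters from high-density lipoprotein, was 9.14, 10.02 and 9.49 at 12 h, against 10.19, 10.64 and 10.06 at 6 h. Here each 12 h array lay below every 6 h array (change -0.75 ± 0.15, limma adjusted p = 0.0186). Of 17 measured genes of the cholesterol synthesis list 0 passed in limma. At an unadjusted p below 0.05, 4 were lower, or 23.5% beside 6.93% of all genes. Lower in all 3 experiments were 9, or 52.9% beside 19.3% of all genes, and the list median was -0.25. Its smallest p belonged to the sterol dehydrogenase Nsdhl, at -0.47 ± 0.16.

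**Figure D3:**
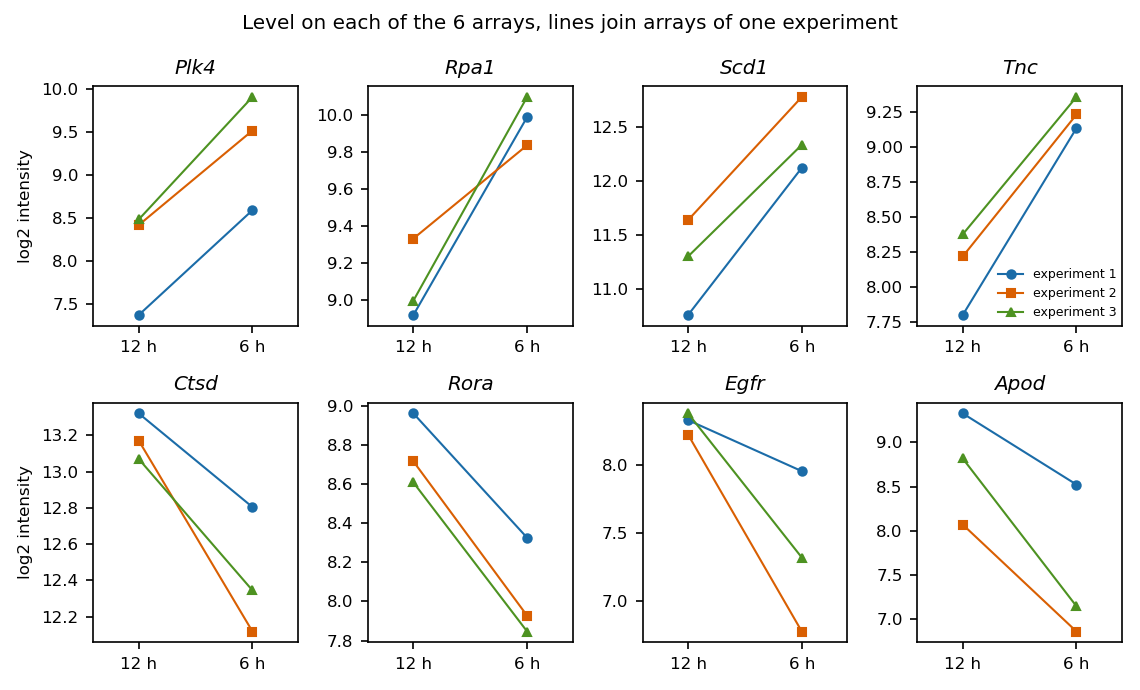
Log2 intensity of 8 called genes on the 12 h and 6 h arrays, with lines joining the 2 arrays of an experiment. Plk4, Rpa1, Scd1 and Tnc are lower at 12 h in each experiment, and Ctsd, Rora, Egfr and Apod are higher. The axes differ between panels and do not start at 0.

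A matrix gene, Tnc, and 2 cytoskeletal genes, Tagln and Gas2, fell. Tnc, the matrix glycoprotein tenascin C, was 7.80, 8.22 and 8.37 at 12 h, against 9.13, 9.23 and 9.36 at 6 h, a separation with narrow spread on both sides (change -1.11 ± 0.20, limma adjusted p = 0.0119). Tagln, the actin-binding protein transgelin, was 9.25, 10.04 and 10.02 at 12 h, against 10.53, 10.79 and 10.62 at 6 h (change -0.88 ± 0.17). Gas2, a cytoskeletal protein named for its rise in growth-arrested fibroblasts, was 10.53, 10.67 and 10.91 at 12 h, against 11.33, 11.81 and 11.60 at 6 h. It fell here by 0.88 ± 0.13 (limma adjusted p = 0.00209), and it was the 1 gene that also passed without the block (adjusted p = 0.028). Tnc and Tagln were already lower at 6 h than at 0 h, by changes of -1.53 and -0.74 in a comparison that shares the 6 h arrays, and both had their lowest mean of the course at 48 h, 7.08 and 8.46.

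On the list of matrix genes Tnc alone passed, each gene being read from its brightest probe set. Of 44 measured genes 27 were positive and 19, or 43.2%, were higher in all 3 experiments, beside 18.8% of all genes. At an unadjusted p below 0.05, 13 were higher, or 29.5% beside 6.5% of all genes. There 2 were lower, or 4.55% beside 6.93% of all genes. The median of 0.11 was 0.04 without experiment 1 and 0.19 without experiment 3. Of 31 genes of the actin cytoskeleton and of serum response factor, Tagln alone passed, and the median was -0.04. The median of this list was 0.04 without experiment 1. Of 23 genes of growth arrest, Gas2 alone passed, with a median of -0.01, and -0.05 without experiment 2 or without experiment 3. A second probe set of the matrix gene Fbln1, fibulin 1, rose by 1.32 ± 0.26 (limma adjusted p = 0.0186), but the brightest and another probe set of that gene gave 0.37 ± 0.12 and 0.06 ± 0.12. Fbln1 was named after its values were seen.

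Other falls had single members in their lists or none. Mgst2, a microsomal glutathione transferase, had the largest fall, at 6.62, 9.01 and 8.86 at 12 h against 9.72, 9.77 and 10.11 at 6 h. Experiment 1 stood apart, and the fitted change of -1.70 ± 0.35 (limma adjusted p = 0.0247) was -1.002 without it, with an adjusted p of 0.0564. It was the only one of 33 measured genes of oxidative stress and NRF2 to pass (median -0.10). Of the 33, 23 were negative and 14 were lower in all 3 experiments, or 42.4% beside 19.3% of all genes. At an unadjusted p below 0.05, 6 were lower, or 18.2% beside 6.93% of all genes. Asb6, an ankyrin repeat protein of the SOCS box family, was 7.30, 7.32 and 7.09 at 12 h, against 8.66, 8.82 and 8.67 at 6 h (change -1.48 ± 0.28, limma adjusted p = 0.0166). Among the means of the 9 times its 12 h mean of 7.24 was the lowest, and the next, at 36 h, was 7.86. Pea15a, a death-effector domain protein that binds ERK, was 8.27, 9.22 and 8.23 at 12 h, against 9.69, 9.73 and 9.89 at 6 h (change -1.20 ± 0.26). Spib, an Ets factor of B cells, was dim, at 6.03, 6.90 and 5.94 at 12 h against 7.59, 7.65 and 7.92 at 6 h (change -1.43 ± 0.33, limma adjusted p = 0.0496), on a probe set whose suffix marks probes shared between transcripts. Spib and Pea15a also had their lowest mean of the course at 12 h, but not their lowest value in each experiment. In experiment 2 Pea15a was lower at 30 h, at 8.76, and Spib at 18 h, at 6.68. Spib in experiment 1 was 6.01 at 24 h.

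The remaining falls lie outside the 12 largest and, except Ddit4 and Tagln, which their lists name, were named after their values were seen. Ptprn, a phosphatase-like protein of secretory granules, changed by -0.76 ± 0.16, Mdfic, of the MyoD inhibitor family, by -0.68 ± 0.15, and Rtraf, an RNA transport factor, by -0.59 ± 0.12. Ddit4, an inhibitor of mTORC1 that stress induces, was 9.57, 9.13 and 8.59 at 12 h, against 9.91, 9.79 and 9.44 at 6 h. The arrays of the 2 times overlapped although each experiment fell (change -0.62 ± 0.14, limma adjusted p = 0.0404). It was the only called gene of 11 in the hypoxia list and of 21 in the ATF4 list. H2az1, Usp1, Scarb1 and Fads1 also fell outside the 12 largest of the comparison. Of these, Fads1 was named through its list and the others after their values were seen.

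Among the rises, Ctsd, the lysosomal protease cathepsin D, had the smallest adjusted p. It was 13.32, 13.17 and 13.07 at 12 h, against 12.80, 12.12 and 12.35 at 6 h, with no overlap (change 0.77 ± 0.10, limma adjusted p = 0.000838). None of the other 35 measured lysosome and autophagy genes passed, and the list median was 0.02. Apod, a secreted lipocalin, had the largest rise among the genes called by their brightest probe set, at 9.33, 8.07 and 8.82 at 12 h against 8.52, 6.86 and 7.15 at 6 h. The experiments differed more in level than the times did, so the arrays overlapped, and the change was 1.23 ± 0.28 (limma adjusted p = 0.0467). Comtd1, a methyltransferase-domain protein, was 8.65, 7.94 and 7.89 at 12 h against 8.01, 6.92 and 6.04 at 6 h, again with overlap (change 1.17 ± 0.27).

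Receptors and surface proteins were the next group. Egfr, the receptor of epidermal growth factor, was 8.33, 8.22 and 8.38 at 12 h, against 7.95, 6.77 and 7.32 at 6 h. The 12 h arrays were close together and the 6 h arrays spread widely, and the change was 0.96 ± 0.20 (limma adjusted p = 0.0289). A second Egfr probe set gave 1.19 ± 0.33 and did not pass (adjusted p = 0.087). Of 24 growth factor and receptor genes Egfr alone passed and 19 were positive, with a median of 0.12, and 0.18 without experiment 3. Cx3cl1, the membrane-bound chemokine fractalkine, was 10.06, 10.10 and 10.57 at 12 h, against 9.52, 9.52 and 9.45 at 6 h (change 0.75 ± 0.17, limma adjusted p = 0.0496). Vcam1, an adhesion molecule for leukocytes, was 9.90, 9.67 and 10.05 at 12 h, against 9.33, 9.14 and 9.52 at 6 h. Its paired changes were nearly equal, 0.57, 0.52 and 0.53, and its arrays did not overlap (change 0.54 ± 0.11, limma adjusted p = 0.0203). Its other 2 probe sets gave 0.40 ± 0.21 and 0.32 ± 0.16 and did not pass (adjusted p = 0.427 and 0.418). Cx3cl1 and Vcam1 belong to the cytokine and NF-kB list, in which only these 2 of 20 passed. The list median was -0.05, and 0.01 without experiment 1. The change of Cx3cl1 from 0 h to 6 h, which shares the 6 h arrays, was -1.55, and its 12 h mean of 10.24 lay below its 0 h mean of 11.05.

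Crabp1, which binds retinoic acid in the cytosol, was 12.97, 13.23 and 12.88 at 12 h, against 12.36, 12.64 and 12.07 at 6 h (change 0.67 ± 0.12, limma adjusted p = 0.0118). Ltbp3, which holds latent TGF-beta in the matrix, was 8.80, 8.96 and 8.90 at 12 h, against 7.95, 8.49 and 8.23 at 6 h (change 0.67 ± 0.14). Neither pair of ranges overlapped. Epn2, an epsin of clathrin-mediated endocytosis, changed by 0.58 ± 0.12, the ubiquitin ligase Herc1 by 0.49 ± 0.11, and the transcript D230025D16Rik by 0.71 ± 0.14. Ptpn9, a cytosolic tyrosine phosphatase, lay outside the 12 largest rises and was named after its values were seen, with a change of 0.49 ± 0.11. In these 4 genes too the arrays of the 2 times did not overlap.

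Of 20 core clock genes 13 were measured, and Rora alone passed. It was 8.96, 8.71 and 8.61 at 12 h, against 8.32, 7.93 and 7.85 at 6 h, with separate ranges and paired changes of 0.64, 0.79 and 0.76 (fitted change 0.73 ± 0.13, limma adjusted p = 0.0118), on a probe set with shared-probe suffix. Nr1d2, which encodes the repressor REV-ERB beta, was 8.31, 8.50 and 8.88 at 12 h, against 7.40, 7.38 and 7.64 at 6 h. All its 12 h arrays were above all its 6 h arrays, with paired changes of 0.90, 1.12 and 1.24. But its fitted change of 1.09 carried an SE of 0.57, from the spread over all 9 times, and did not pass (limma adjusted p = 0.421). Nr1d1, for REV-ERB alpha, was likewise separate, at 8.62, 8.40 and 8.53 at 12 h against 8.23, 7.89 and 7.99 at 6 h (change 0.48 ± 0.29, limma adjusted p = 0.485). The period gene Per3 had 0.51 ± 0.37 and Cry2 0.43 ± 0.22, while Cry1 had -0.29 ± 0.22, Per1 -0.03 ± 0.29 and the Timeless gene -0.35 ± 0.19. The positive arm gave changes of 0.05 ± 0.29 for Arntl and 0.01 ± 0.19 for Clock. Per3 was 0.16 without experiment 1 and 0.79 without experiment 3, and Timeless was -0.66 without experiment 1 and -0.06 without experiment 3. The sign of Per1, Arntl, Clock and Bhlhe40 turned with 1 experiment left out, between -0.44 and 0.33 for Per1. Bhlhe40 and the kinases Csnk1d and Csnk1e had -0.02 ± 0.46, 0.06 ± 0.08 and -0.06 ± 0.15. None of these 12 genes passed, which does not show that their levels were equal at the 2 times.

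The lists of cyclic AMP and CREB targets and of immediate early genes had no called member in this interval. Without unpulsed cultures, the response to forskolin itself was not defined here. Of 21 measured cyclic AMP and CREB targets 0 passed in limma, with a median of 0.09, and 0.05 without experiment 1. At an unadjusted p below 0.05, 3 were lower, or 14.3% beside 6.93% of all genes, and 0 were higher. From 0 h to 6 h the same list had a median of -1.19, in a comparison that shares the 6 h arrays. Rgs2, a regulator of G protein signalling and a target of CREB, came closest, at 8.18, 8.67 and 8.11 at 12 h against 9.50, 9.07 and 9.08 at 6 h. Its ranges were separate, and its change was -0.90 ± 0.22 (limma adjusted p = 0.0644). Of 25 immediate early genes 0 passed. At an unadjusted p below 0.05, 1 was lower (4%) and 2 were higher (8%), beside 6.93% and 6.5% of all genes. The smallest p was that of Jun, at 0.58 ± 0.16. The median was 0.06, and 0.12 to 0.20 with 1 experiment left out. Proteasome genes had small changes, mostly down, with 25 of 31 negative. Lower in all 3 experiments were 14, or 45.2% beside 19.3% of all genes. The median of -0.09 was -0.20 without experiment 3. Of the 31, 0 passed in limma and 5, or 16.1% beside 6.93% of all genes, were lower at an unadjusted p below 0.05.

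**Figure D4:**
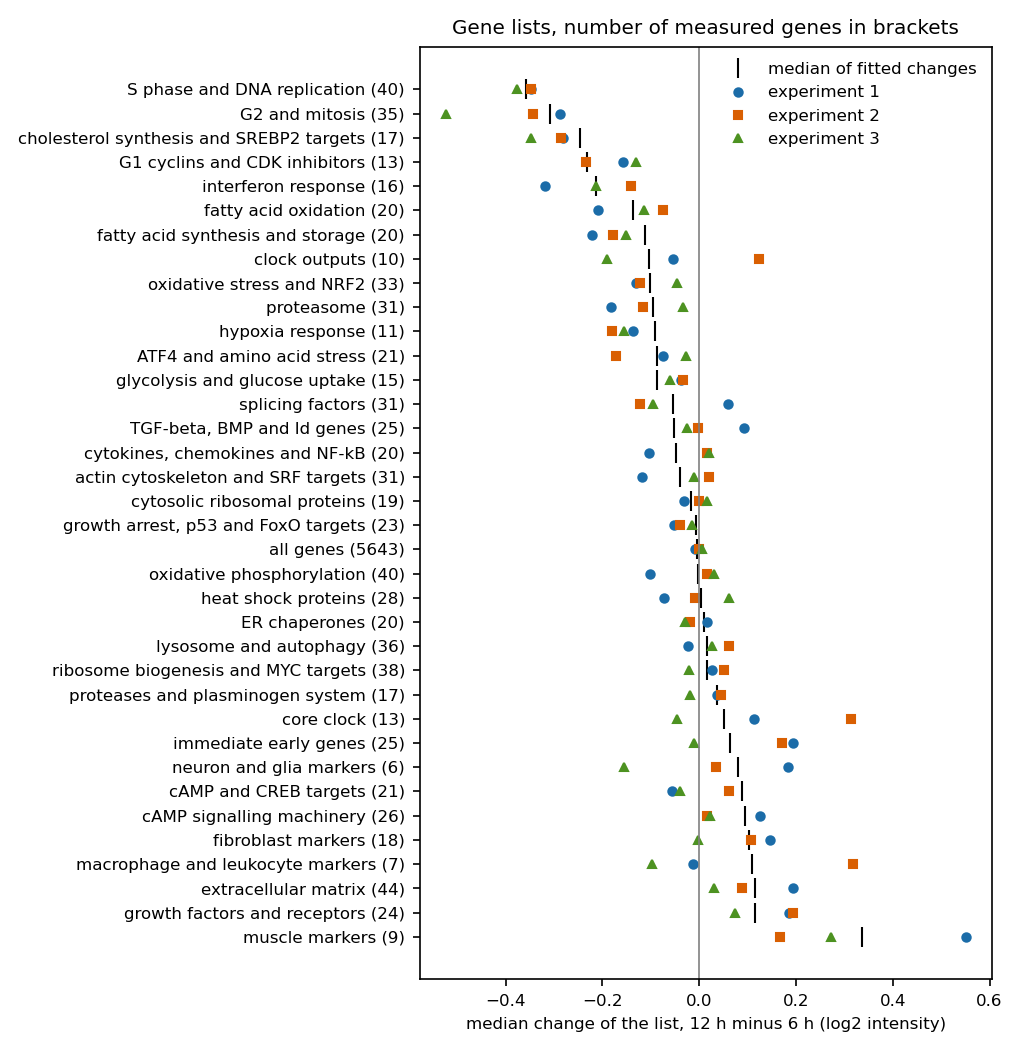
Median change of each gene list with at least 5 measured genes, 12 h minus 6 h in log2 intensity, over all fitted changes (black bar) and in experiments 1 to 3 (symbols). The replication, mitosis and cholesterol lists have the lowest medians, -0.36, -0.31 and -0.25, and the muscle marker list, with 9 dim genes of which 0 passed, the highest, 0.34.

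The place of 6 h and 12 h in the whole course was read from the means of the 9 times. The genes were chosen for a difference between these times, which by itself favours an extreme at 6 h or 12 h, so nothing is read from these counts. Of the 21 lower genes 11 had their highest mean at 6 h and 9 at 0 h, and 6 had their lowest at 12 h. Of the 13 higher genes 8 had their lowest mean at 6 h and 5 at 0 h, and 6 had their highest at 12 h. Over all 5643 genes, 15.7% had their highest mean at 6 h and 11.45% at 12 h, and 15.15% had their lowest at 6 h and 12.1% at 12 h. Plk4 shows a step that stayed: its means were 9.30, 9.34, 8.09, 7.57, 7.73, 7.54, 7.82, 7.64 and 7.66 from 0 h to 48 h. Scd1 had 12.38, 12.41, 11.23, 10.96, 11.36, 11.61, 11.34, 11.39 and 11.55 over the same times. Crabp1 climbed on after 12 h, with 12.03 at 0 h, 12.36 at 6 h, 13.03 at 12 h and 13.32 to 13.58 from 18 h on. Asb6, at 8.70 at 18 h, returned: its change from 12 h to 18 h, which shares the 12 h arrays, was 1.47 ± 0.28 (limma adjusted p = 0.0361). It had been picked for low values on those 12 h arrays, a choice that by itself favours such a rise.

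The same clock interval came round 24 h later, at 36 h against 30 h, on arrays that the 6 h and 12 h values do not share. There 0 of 5643 genes passed in limma (0%), and 338 of 7453 probe sets, or 4.54%, had an unadjusted p below 0.05. Of the 21 genes lower at 12 h, 12 were also negative at 36 h against 30 h, or 57.1%, beside 51.6% of all genes. Their median change was -0.89 at 12 h against 6 h and -0.06 at 36 h against 30 h. Of the 13 genes higher at 12 h, 9 were positive, and the median was 0.71 in the earlier interval and 0.12 in the later one. All 34 were smaller in size in the later interval. They had been picked on the earlier one, a choice that by itself favours larger sizes there.

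Plk4 changed by 0.28 ± 0.20 at 36 h against 30 h, opposite to its earlier fall, and the difference of its 2 intervals, -1.53 ± 0.29, had the smallest adjusted p of all probe sets, 0.0946. Scd1 changed by -0.27 ± 0.14 in the later interval, Asb6 by -0.65 ± 0.28, Mgst2 by -0.56 ± 0.35, Ctsd by 0.12 ± 0.10 and Rora by -0.01 ± 0.13. In the test of the difference between the intervals 0 of 5643 genes passed in limma (0%), with 547 probe sets, or 7.34%, at an unadjusted p below 0.05. A difference between the intervals was therefore not shown for any gene. The replication list had a median of -0.36 at 12 h against 6 h and of 0.03 at 36 h against 30 h, where 17 of 40 members were negative. The mitosis list had medians of -0.31 and -0.05 in the earlier and the later interval, with 21 of 35 members negative in the later. These list differences were not tested.

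**Figure D5:**
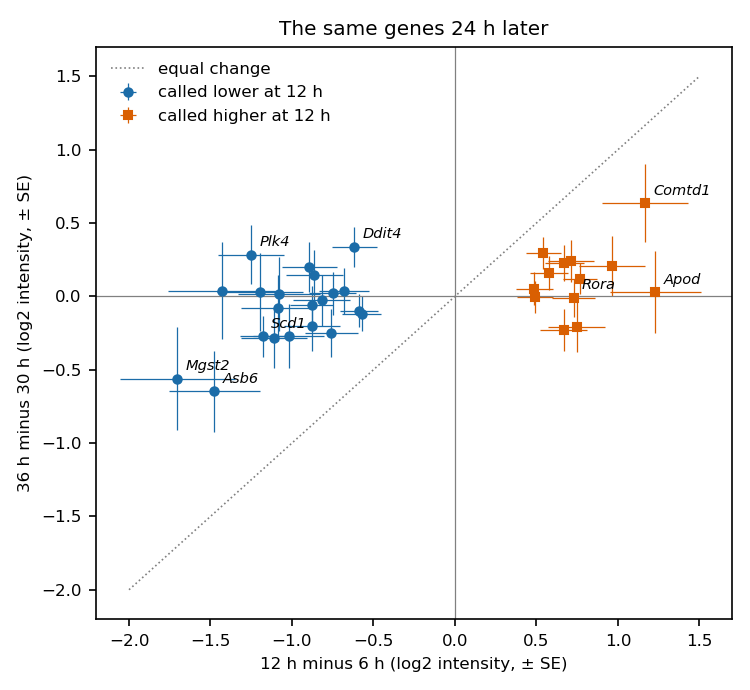
Change of the 34 called genes at 36 h minus 30 h against their change at 12 h minus 6 h, both in log2 intensity with SE. Points on the dotted line would have equal changes, and all 34 lie closer to 0 on the later axis, between -0.65 for Asb6 and 0.63 for Comtd1.

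Most called genes owed their pass to all experiments together. With 1 experiment left out, 14, 4 and 4 probe sets passed without experiments 1, 2 and 3. Among the 34 called genes 5, 3 and 4 passed in these fits. All 34 kept their direction, which was fixed beforehand, since each had 1 sign in all 3 experiments. Just beyond the threshold, the glycolytic enzyme Pkm had -0.42 ± 0.10 and the carboxylesterase Ces1d 1.62 ± 0.38, both at an adjusted p of 0.0531 in limma, and the chromatin protein Dek had -0.63 ± 0.15 at 0.0575.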

How the data were processed

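The deposited values are probe set intensities on a linear scale, which the authors had scaled: the mean without 2% of probe sets at each end was 500.28 to 500.35 on every array. How probes were summarised is not given in the sources used. Because array medians of log2(intensity + 12.1) lay up to 0.25 apart, with 0.2 as the limit, these values were quantile normalized. The pseudocount is the 10th percentile, and fold changes of dim probe sets are understated. The 66 controls and probe sets under the 40th percentile of mean level were left out, which kept 7453 of 12488. The platform annotation gave 1 symbol to 10855 probe sets, several to 396 and none to 1193, and 10839 matched RefSeq (GRCm38.p6).

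One fit in limma 3.58.1 (R 4.3.3, eBayes with trend) held the 9 time means and the experiment as a block. The labels give each experiment number to 1 array per time. Deviations from the time means correlated between same-numbered arrays in every pair, so arrays of 1 number deviated alike. The lowest r was 0.426 for experiment 1, 0.349 for experiment 2 and 0.135 for experiment 3. Between the 12 h and 6 h arrays r was 0.532, 0.393 and 0.263. No 2 arrays were identical. The code was tested on simulated data. The rule named the 12 largest rises and falls that passed with 1 sign in all experiments, up to 4 called members of each list (with none called, that of smallest p), and all measured core clock genes. The comparison and the 38 lists were chosen with earlier results of these data known. Alternatives changed the block, scaling, pseudocount, filter, variance model, arrays and experiments. The number of arrays limits the precision.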

Additional observations from a re-analysis of the deposited data

How the results depend on the processing

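All 34 called genes kept their direction under every alternative in which they were measured. Each had 1 sign in all 3 experiments, so leaving out 1 experiment or the block could not turn it. The count of 40 called probe sets between 12 h and 6 h became 1 with no replicate block, 22 with no filter and 61 with array weights, and 4 to 14 with 1 experiment left out. It stayed between 32 and 56 under the other alternatives. With only the 6 h and 12 h arrays and the replicate block, 56 passed, of which 21 were among the 40. Of the 24 genes that the rule took by size, 1 passed with no replicate block, 12 with no filter, 15 with the filter at the 60th percentile (which kept 15 of them), 12 with only the time points compared, and 2 to 5 with 1 experiment left out. At 36 h against 30 h the count of 0 became 1 with no intensity trend, Lman2, and 1 without the 18 h and 30 h arrays of experiment 1, Grb7. With 1 experiment left out it was 0 to 1, again Grb7, and the count for the difference of the 2 intervals was 0 to 1, Dcaf12, higher without experiment 2. The causes were not tested. Among the 34 genes, leaving out 1 experiment moved Mgst2 and Chek1 by over 1.5 times: Mgst2 was -1.002 without experiment 1 and Chek1 -0.66 without experiment 3. Centring each array on its median gave 11 higher and 22 lower, beside 17 and 23. Detection calls were not used here, so dim levels such as those of Spib and Chek1 cannot be told from background.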
